A study of Mus with 4 samples.

Results

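The Lrig gene family has 3 members in the mouse, Lrig1, Lrig2 and Lrig3, out of the 21887 protein-coding genes of the main chromosomes in RefSeq GRCm38.p6. All 3 were looked up by symbol. The family was selected on measured values, namely the score beside Lrig1, which is the highest of any protein-coding gene end in a TBX3 ChIP-Seq track of primary mouse hepatocytes. The scores of the members are therefore a description, and none was tested. The hepatocytes carried the construct pT2-SVNeo-EF1-eGFP-P2A-Tbx3-HA, which encodes HA-tagged TBX3 together with eGFP, and this overexpression is shared by both groups of libraries. For the 2 TBX3 ChIP libraries chromatin was precipitated with an anti-HA antibody, and the 2 Input libraries are sheared chromatin of the same cells without precipitation. The labels used here give no treatment, time, strain or age. One track was deposited for the series, with 1 score per stretch of the genome and no value per library, so no value below has a replicate error. Which libraries entered the track is not known. Endogenous TBX3, cells without the construct and precipitation with a control antibody were not analysed here, and the cell type could not be checked against marker genes, since the track holds no expression.

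LRIG proteins are single-pass membrane proteins with leucine-rich repeats and immunoglobulin-like domains in their extracellular part. LRIG1 is best known as a feedback inhibitor of the ErbB family of receptor tyrosine kinases, which it binds and directs to degradation, and as a marker of stem cells in epithelia. TBX3 is a T-box transcription factor that acts mostly as a repressor, and in the liver it is a Wnt target in the hepatocytes around the central vein.

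Each score is a −log10 p-value that sets the pileup, the number of extended ChIP reads over a base, against the level expected from Input. The expected level is the largest of a genome-wide mean and of local Input levels, so it cannot fall below 2.43 reads per base. The pileup and the expected level are not in the track. They were inferred from the scores, and reads means inferred reads throughout. The windows at gene ends reach 1 kb to each side, and the larger of a gene's 2 window maxima is called its promoter score, because the annotation used here holds no strand. The ends are therefore named by their coordinates, lower and higher, and a promoter score may come from the end of a gene opposite its start.

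Lrig1 (gene 16206, chr6:94604529-94700298, 95770 bp) carried the family's 1 TBX3 region, at its higher-coordinate end. The region spanned chr6:94700207-94700696 on mm10, 490 bp of which 461 bases scored 5 or more and the rest were short gaps joined into it. Its summit at position 94700398 lay 100 bp outside the annotated gene and reached a score of 43.58. With the pileup and the expected level divided by 2 and odd pileups rounded down, so that a read pair counts once, this score was 22.25. Whether the track counts both mates of a pair was not established, so this setting rests on an assumption. At the summit the pileup was 47 reads against 2.43 expected, a 19.3-fold enrichment with a 95% exact Poisson interval of 14.2 to 25.7. Such intervals cover counting error only. They are too narrow for values picked as the highest of a window, and mates of a read pair, if both were counted, are not independent.

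The region straddled the annotated end of Lrig1, with 92 bp inside the gene and 398 bp outside it. The score at the gene's last base was still 22.96, with 30 reads. Going into the gene, the pileup was 30 reads at 100 bp from the summit and 8 at 200 bp. Away from the gene it was 16 reads at 100 bp, 15 at 200 bp, 11 at 300 bp, 6 at 400 bp and 0 at 700 bp. The side facing away from the gene thus held a shoulder, between 100 and 250 bp from the summit, in which the pileup stayed at 13 to 18 reads and the score between 4.49 and 8.80. The highest pileup of the shoulder, 18 reads, stood 239 bp from the summit, beside bases with 17 reads. The expected level was also higher in the shoulder, at 2.50 to 4.17 reads against 2.43 at the summit. The core was narrow, as 166 bases scored 20 or more and 111 bases 30 or more. The width at which the pileup had fallen to 50% of its summit value was 182 bp, against a median of 302 bp over the regions of the whole track.

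**Figure D1:**
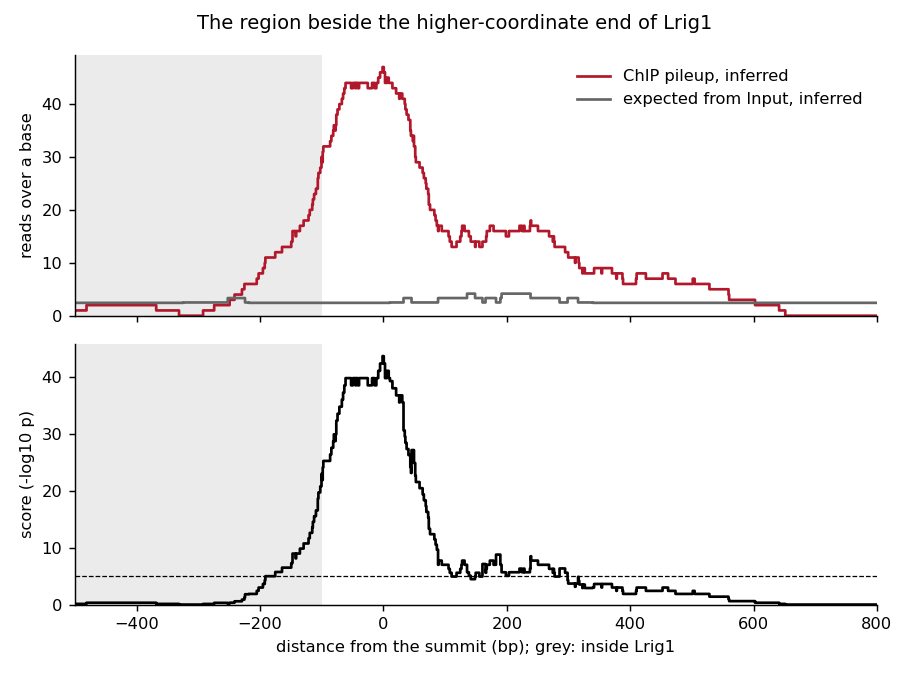
The upper panel plots the inferred pileup and expected level (reads per base) and the lower panel the deposited score (−log10 p) against the distance from the Lrig1 summit in bp, with the inside of Lrig1 in grey. The pileup reached 47 reads over an expected level of 2.43, fell to 8 reads 200 bp into the gene and kept a shoulder of 13 to 18 reads on the other side.

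The track held 125 TBX3 regions in all, and 55 of them had their summit within 1 kb of the end of a protein-coding gene. Among all 125, the Lrig1 region ranked 2nd by summit score and 21st by length. The number of regions ranged from 29 to 773 under other settings, and the length of the Lrig1 region from 216 to 664 bp. Among the 121 with an inferred pileup, it ranked 2nd by fold enrichment. A higher pileup at the summit was inferred for 12 regions. Of these, 11 held jumps of at least 110 reads between neighbouring intervals over expected levels of at least 11.7, and the remaining one was the region inside Stab2. The same 11 were the only regions with a narrower core than that of Lrig1. Their cores were at most 89 bp wide, which whole reads extended to 150 bp, as in the inference, cannot give. The inferred pileups of these 11 are therefore unreliable, and the place of Lrig1 by pileup and core width is uncertain. It lay at the end of 1 gene only, as 42 of the 55 regions at gene ends did. Its summit lay outside the gene, as in 37 of these 55. The median distance from the summit to the nearest gene end was 136 bp over the 55, and their median length was 316 bp. The Lrig1 region was thus longer than the median and narrower in its core. In the region, the pileup changed by at most 2 reads from one step to the next, and 91.3% of its steps were of 1 read. With reads taken as extended to 150 bp, the mean pileup over the region corresponds to 78.3 extended reads against 9.52 expected.

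Lrig2 (gene 269473, chr3:104453980-104511918, 57939 bp) and Lrig3 (gene 320398, chr10:125966219-126015359, 49141 bp) had no TBX3 region inside the gene or within 10 kb of it. Lrig2, a less studied member with a reported role in growth factor signalling, had a promoter score of 2.44, from 7 reads against 2.43 expected at 331 bp outside its higher end. Its 2.88-fold enrichment had an interval of 1.16 to 5.92. Lrig3, which is required for the shaping of the inner ear canals, had a promoter score of 3.63. This score came from 10 reads against 2.92 expected, 85 bp outside its higher end, a 3.43-fold enrichment with an interval of 1.64 to 6.30.

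Of all protein-coding genes, 0.311% had a region within 1 kb of an end and 0.667% had one inside or within 10 kb, and in both counts Lrig1 was the 1 member of 3. A promoter score of at least 5 was reached by 3.60% of the genes and again by 1 of the 3 members. Nothing is read from these counts, since the family was selected on the score of Lrig1. Only that gene itself scored as high as Lrig1 (1 of 21887), and the next-highest promoter score was 32.27. A score as high as that of Lrig2 was found for 11056 genes (50.5%), and one as high as that of Lrig3 for 3234 genes (14.8%). The promoter score of all genes had a median of 2.44 and quartiles of 1.84 and 3.02. Lrig2 therefore stood at the median, a value that 3877 genes shared exactly because pileups are whole numbers, and Lrig3 stood above the upper quartile. These positions moved with the measure. When ends were ranked by their mean score, 6 genes were as high as Lrig1, itself included, 33.6% of genes as high as Lrig2 and 53.5% as high as Lrig3. For Lrig2 the share was 32.8% with windows of 500 bp and 71.0% with windows of 2 kb.

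**Figure D2:**
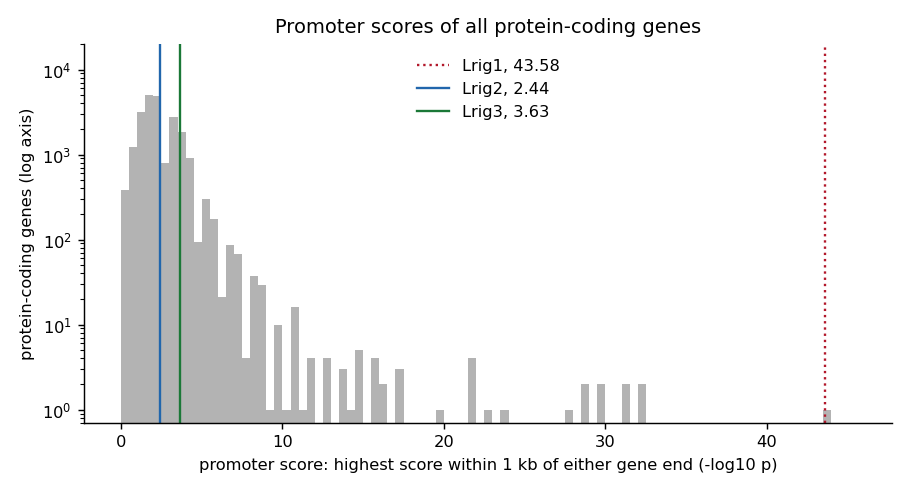
The histogram counts protein-coding genes (log axis) by promoter score (−log10 p), and vertical lines mark the 3 members. Lrig1 stands alone at 43.58, while Lrig2 at 2.44 and Lrig3 at 3.63 lie within the bulk of the genes.

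In each member the highest promoter score belonged to the higher-coordinate end. At the lower end the score was 1.00 for Lrig1 (4 reads), 1.37 for Lrig2 and 1.42 for Lrig3 (5 reads each). The mean pileup over the 2 kb centred on the higher and the lower end was 8.03 and 1.03 reads for Lrig1, 2.32 and 1.39 for Lrig2, and 2.46 and 1.03 for Lrig3. Bases without any read made up 17.6% of that window at the higher end of Lrig1, 14.6% at that of Lrig2 and 13.6% at that of Lrig3, against 53.1%, 40.7% and 47.1% at the lower ends. Coverage was thus denser at the higher end of all 3 genes, while only that of Lrig1 held a region. Without strand, the higher end may be the start in some members and the far end in others. No shared feature of the members is therefore read from this.

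Inside the genes, more than 1 kb from either end, each member had 1 short stretch that scored 5 or more without reaching the minimum length of 200 bp for a region. In Lrig1 it spanned chr6:94646515-94646699 and peaked at position 94646566, 42037 bp from the nearest end and 43.9% of the way along the gene, with a score of 10.74. Its 18 reads stood 7.39-fold over the expected level (interval 4.38 to 11.7), and the stretch, at 185 bp, fell just short of the minimum. In Lrig3 the highest interior score was 7.31, from 14 reads, 15602 bp from the nearest end, and 59 bases reached 5. In Lrig2 it was 5.75, from 12 reads, 10728 bp from the nearest end, and 49 bases reached 5. The enrichments were 5.75-fold for Lrig3 (interval 3.14 to 9.65) and 4.93-fold for Lrig2 (interval 2.55 to 8.61), so the intervals of all 3 interior maxima overlapped.

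An interior score of at least 5 was found in 14.7% of the 18488 genes long enough to have an interior. Longer genes offer more bases, and among the 2472 genes between the length of Lrig3 and that of Lrig1 the share was 22.4%. All 3 members had one. Among these like-length genes, whose median interior score was 4.20, 7 (0.283%) reached the score of Lrig1, 46 (1.86%) that of Lrig3 and 224 (9.06%) that of Lrig2. Counting fewer reads lowers the scores of all genes. With read pairs counted once, the interior scores were 6.18 for Lrig1, 4.39 for Lrig3 and 3.56 for Lrig2, and 1 of 3 members, against 0.647% of the like-length genes, kept a score of at least 5.

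**Figure D3:**
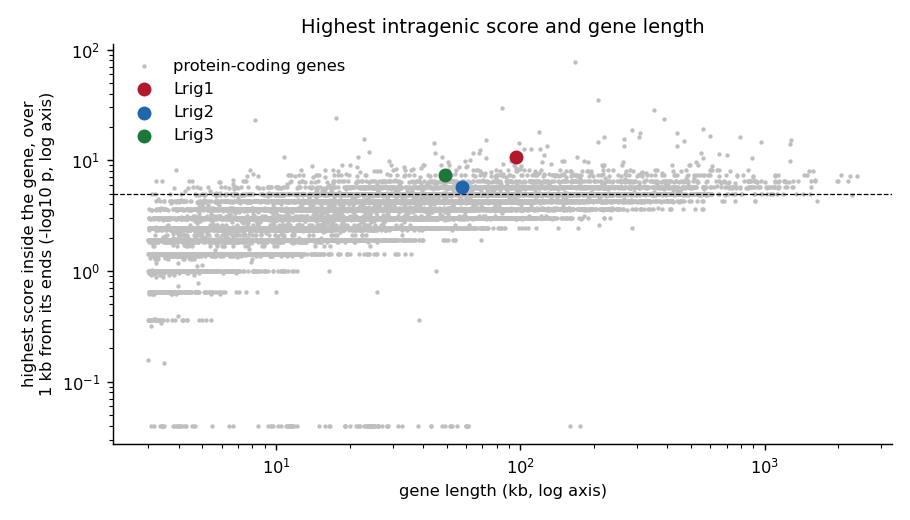
Each point is a protein-coding gene, with gene length (kb, log axis) against the highest score inside the gene more than 1 kb from its ends (−log10 p, log axis), the 3 members marked and a dashed line at 5. Lrig1 at 10.74 lies above most genes of its length, with Lrig3 at 7.31 and Lrig2 at 5.75 below it.

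Over the whole length of the genes, the mean score was 0.410 for Lrig1, 0.328 for Lrig2 and 0.375 for Lrig3, against a median of 0.339 over all genes. A mean as high was found in 20.2%, 55.3% and 33.1% of genes in the same order. Bases with a score of at least 3 made up 0.748% of Lrig1, including its part of the region at the end, 0.794% of Lrig2 and 0.767% of Lrig3. Runs of such bases with their summit inside the gene, which leaves out the region at the end of Lrig1, numbered 13 in Lrig1 (1.36 per 10 kb), 10 in Lrig2 (1.73 per 10 kb) and 9 in Lrig3 (1.83 per 10 kb). Lrig1 therefore had the fewest such runs per length of the 3 members, but the counts are small and the difference was not tested. Read depth also differed between the chromosomes of the members, as given below.

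**Figure D4:**
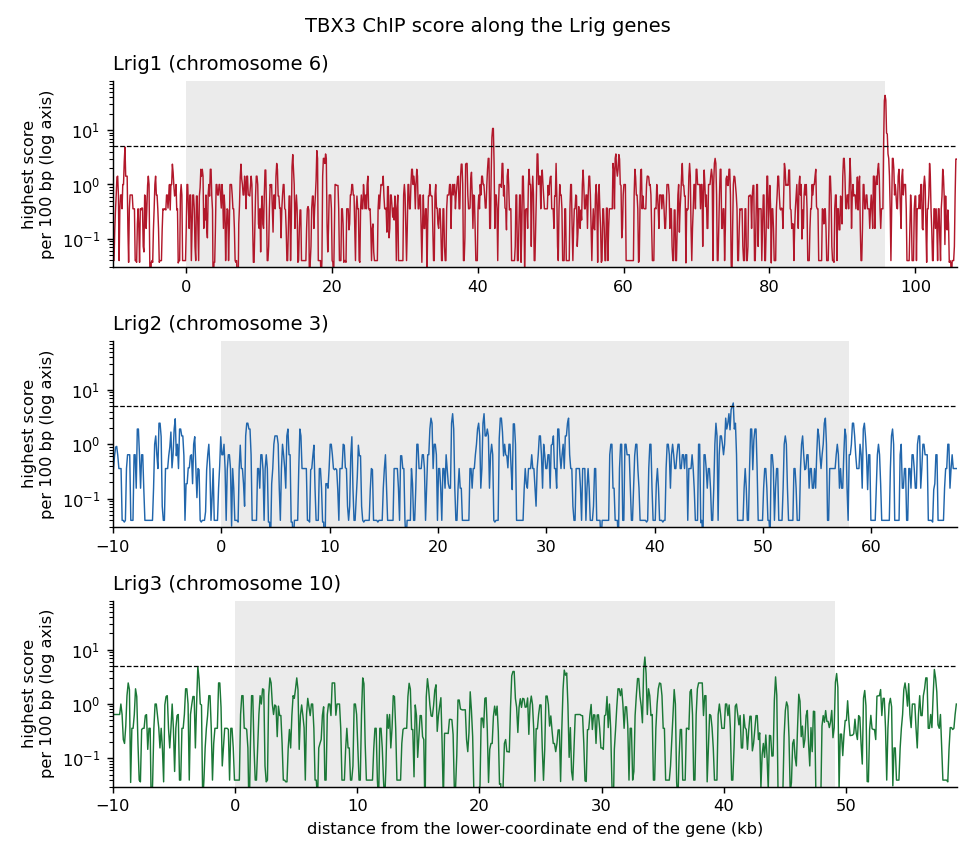
The highest score per 100 bp (−log10 p, log axis) is drawn across each member and 10 kb on either side, with distance in kb, the gene in grey and the score of 5 dashed. The peak of 43.58 stands at the higher end of Lrig1, and the highest stretches inside the genes reach 10.74, 5.75 and 7.31 in Lrig1, Lrig2 and Lrig3.

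In the 10 kb outside the genes, beyond the Lrig1 region itself, no base reached 5. The highest scores were 4.89 on either side of Lrig1, on its higher side at 316 bp from the summit, 2.94 and 2.44 outside the lower and higher ends of Lrig2, and 4.89 and 4.31 outside those of Lrig3. Few genes lay close to the members. The lower end of Lrig1 overlapped the higher end of Slc25a26, a mitochondrial carrier gene, by 131 bp, and the promoter score of Slc25a26 was 1.42. On the higher side, where the region lay, the nearest protein-coding gene was Kbtbd8 at 417582 bp. Protein-coding neighbours were also distant from Lrig2 (Slc16a1 at 126746 bp and Magi3 at 233574 bp) and from Lrig3 (Slc16a7 at 576633 bp and Atp23 at 852470 bp). Of other annotated genes, the miRNA gene Mir7041 lies inside Lrig1, where the highest score was 0.34, and the lncRNA gene Gm29997 lies inside Lrig3, where it was 2.92. The pseudogene Gm6638, 21871 bp beyond the higher end of Lrig1, had a promoter score of 1.00. The lncRNA gene Gm29944, 27605 bp outside the lower end of Lrig3, had one of 3.93, above the 3.63 of Lrig3. Near Lrig2, the scores were 1.00 for Gm38412, 2.44 for Gm9273 and 1.90 for Gm34490. The Lrig1 summit thus had no second protein-coding gene end near it.

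Read depth differed between the chromosomes of the members. Against the median of the autosomes, the mean pileup was 1.03-fold on chromosome 6, which holds Lrig1, 0.799-fold on chromosome 3, which holds Lrig2, and 1.40-fold on chromosome 10, which holds Lrig3 and ranked 1st of the 19 autosomes. Within the gene, the mean pileup was 1.91 reads for Lrig1, 1.44 for Lrig2 and 2.08 for Lrig3, which is 1.03-fold, 1.01-fold and 0.830-fold the mean of the respective chromosome. Raising the expected level to the depth of the chromosome moved the promoter score of Lrig3 to 3.08 and its interior score to 5.50, and left the promoter score of Lrig1 at 42.97. The part of chromosome depth in the scores was not tested further.

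The genes with promoter scores nearest to that of Lrig1 were Mkks and Slx4ip at 32.27 and Myo9b, an unconventional myosin gene whose summit lies near a second gene end as well, at 31.06. Mkks, a chaperonin-like gene, and Slx4ip, a partner of a DNA repair nuclease, are neighbours that share 1 summit. Nearest to Lrig3 were Krt4 (3.63), Tcf23 and Tesmin (3.64 each). Among the many genes tied with Lrig2 at 2.44, Ocstamp, Gbe1 and Jak2 were closest to it in mean score over the same windows. Likeness here is in promoter score, within 1 track.

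Genes of the pathway on which LRIG1 acts, and genes of related proteins, were scored in the same way in 6 lists. The lists were put together with earlier results of these data known and hold 86 genes, all of which matched. A promoter score of 5 or more was reached by 4 of them (4.65%), beside 3.60% of all protein-coding genes, and the median of the 86 was 1.90, beside 2.44.

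None of the 4 ErbB receptor genes reached a promoter score of 5, while 3 of them, Egfr, Erbb3 and Erbb4, had an interior score of 5.75. An interior score of at least 5 was found in 14.7% of all genes and in 22.4% of the genes as long as the members. Egfr, at 161705 bp, and Erbb4, at 1076693 bp, are longer than every member, and Erbb3, at 22113 bp, is shorter. Nothing is read from this count. By promoter score Erbb3, which encodes the family member with a nearly inactive kinase, was the highest at 4.31. Erbb2 scored 3.65, Egfr, the receptor for EGF and TGF-alpha, scored 1.90 and Erbb4 scored 1.42. Of the 11 ligand genes none reached 5 either, and the highest was Tgfa, a ligand of EGFR, at 3.65. The median was 2.78 for the receptors and 2.44 for the ligands, near the median of all genes.

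Among 13 other inhibitors of ErbB signalling, 3 reached a promoter score of at least 5, each at 5.75, where 3.60% of all genes did. These were Dusp6, a phosphatase of ERK, Socs4, an adaptor for ubiquitin ligases, and Cblb, a ubiquitin ligase of receptor tyrosine kinases. With read pairs counted once each scored 3.56, and 0 of the 86 listed genes and 0.457% of all genes reached 5. Their list had a median of 1.90 and no TBX3 region. Among 21 adaptors and effectors, 1 gene, Gab1, a docking protein downstream of EGFR and MET, reached 5.01, and the median was 2.44. Plcg1, a phospholipase activated by receptor tyrosine kinases, held the only TBX3 region of the 86 genes, where 0.667% of all protein-coding genes have one inside or within 10 kb. It lay inside the gene at chr2:160735552-160735810, measured 259 bp and had a summit score of 14.28 from 22 reads.

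The 14 other receptors on which LRIG proteins are known to act had a median promoter score of 2.11 and none at 5 or more, with Bmpr2, a BMP receptor, highest at 4.31. An interior score of at least 5 was found in 4 of these 14 genes. One of the 4 is Met, the HGF receptor, which was singled out after its values were seen, with an interior score of 12.60. Of the 84 genes of all lists that have an interior, 19 (22.6%) had such a score. The share was 14.7% of all genes and 22.4% of the genes as long as the members. The 84 genes span 3214 to 1313504 bp, so these shares are not matched for gene length. The 23 other genes of proteins with leucine-rich repeats and immunoglobulin domains had the lowest median, 1.42, and the highest of them was Lrfn2, a synaptic adhesion protein gene, at 3.15. The highest promoter score in the 6 lists was 5.75. That it lies below the 43.58 of Lrig1 was fixed by the selection of Lrig1, and nothing is read from it.

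**Figure D5:**
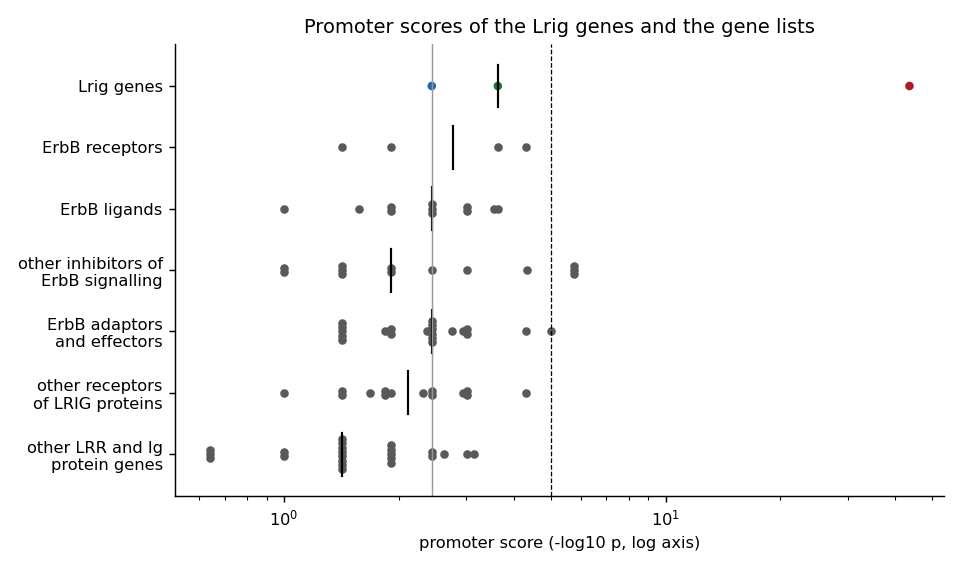
Each point is the promoter score (−log10 p, log axis) of 1 gene, for the Lrig family and the 6 lists, with black bars at the list medians, a grey line at 2.44, the median of all protein-coding genes, and a dashed line at 5. Lrig1 at 43.58 was selected as the highest of all protein-coding genes, so its place above every listed gene was fixed. Of the 86 listed genes, 4 reach the dashed line.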

How the data were processed

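TBX3 ChIP-Seq of primary mouse hepatocytes comprised 2 TBX3 ChIP and 2 Input libraries, and the authors deposited 1 track, made by comparing ChIP with Input in MACS2 and holding −log10 p-values. Coordinates are on mm10. The submitters' processing notes name Bowtie2, SAMtools and MACS2. Versions, duplicate removal and the pooling of replicates are not given in the sources used here, and the libraries in the track are not known. With 0 columns of per-sample values, no test between groups was possible and depth per library is unknown.

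The deposited track holds 110667813 intervals over 2727620324 bases, and its 21 main chromosomes were used. For every interval, a whole number of ChIP reads and an Input level (over 150, 1000 and 10000 bp, or genome-wide) were sought that return its score under a Poisson distribution, by the path of fewest changes along the chromosome, with up to 30 candidate pairs within 1e-05 of each score. The extension of each read to 150 bp was a set value that the sources used here do not give. With it, inferred reads came to 30121242 in all, a total that scales with this value. On a simulated track of 20000000 bases, 30 of 30 planted sites, each of 30 added read pairs, were called. The calls used the simulated scores and not the inferred pileup, and finding all sites was a condition of the run. This result therefore covers neither the inference nor weaker sites. Whether duplicates were kept would move every pileup.

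A region was a stretch of 200 bp or more that scored 5 or more, gaps of up to 30 bp included, as MACS2 does by default on such a track. Gene positions were taken from RefSeq GRCm38.p6 without strand. No genome or promoter sequence was used here, so motifs were not searched.

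The family and the gene lists were chosen with earlier results of these data known. Genes named are the members, the 3 genes nearest in promoter score to each, genes nearest to member summits, and listed genes with a promoter score of at least 5 or a region inside or within 10 kb, or the highest of a list without any. Other ErbB receptors, Met and the neighbours of the members were named beside this rule. Versions were numba 0.67.0, scipy 1.17.1, pandas 2.3.3 and numpy 2.4.6 under Python 3.11.15.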

Additional observations from a re-analysis of the deposited data

How the results depend on the processing

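For the promoter scores, the regions, the shares of genes, the interior scores and the listed genes, 55 values were recomputed under other settings. Of these, 11 were counted as moved and 44 were not. The 44 are not all stable, since they include the share for Lrig2 with windows of 2 kb, 71.0% against 50.5%. They also include the interior scores of Lrig2 and Lrig3 with read pairs counted once, 3.56 and 4.39, which fell below 5. Counting a read pair once lowered the promoter score of Lrig1 to 22.25, that of Lrig2 to 1.45 and that of Lrig3 to 2.41. The score of Lrig1 was still the highest of all protein-coding genes (next 17.18). This rank is no separate support, since the setting rescales the values by which Lrig1 was selected. Of the 86 listed genes, 0 were left at 5 or more, against 4. Lowering the cutoff to 3, or the shortest length allowed to 100 bp, gave 2 regions at Lrig1, the second being the stretch inside the gene. The 125 regions of the whole track, on which the ranks of the Lrig1 region rest, became 773 at a cutoff of 3, 29 at 10, 640 at 100 bp, 170 with gaps of 100 bp, 43 with read pairs counted once and 107 with the expected level raised. Lrig2 and Lrig3 had 0 regions under all 8 alternatives. The share of genes scoring as high was 0.0274% for Lrig1, 33.6% for Lrig2 and 53.5% for Lrig3 when ends were ranked by mean score. Counting all annotated genes it was 0.00200% for Lrig1. With a window of 500 bp it was 32.8% for Lrig2 and 9.08% for Lrig3, and with one of 2 kb 71.0% for Lrig2 and 24.0% for Lrig3. The causes were not tested beyond what each setting itself changes. Read pairs counted once and the raised expected level were applied to the interior scores, and the former to the listed genes, after the data were seen.

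The start of each gene alone and the promoter motifs were not run, since the annotation used here holds neither strand nor sequence. Replicates could not be left out, and the track gives no depth per library. No paired analysis was possible because the track holds no value per library.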
